A study of Mus musculus with 3 samples.

Results

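Cells hold on to laminins and collagens through a small set of surface receptors, and the transcripts of 9 genes for such receptors were followed in cultured mouse cortical neurons. The 9 genes were listed by name: Itgb1 and Itgb4, which encode the integrin subunits beta 1 and beta 4, Itga1, Itga2, Itga3, Itga6 and Itga7, which encode alpha subunits, Dag1, which encodes dystroglycan, and Bcam, which encodes basal cell adhesion molecule. All 9 were found by symbol among the 54232 gene identifiers of the count tables, and 7 of them reached a level of 1 CPM, the usual count scaled to a library's total, in at least 1 library.

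An integrin is a pair of 1 alpha and 1 beta subunit that spans the membrane and ties the matrix outside to actin, or to intermediate filaments in the case of beta 4, inside. Pairs of beta 1 with alpha 3, alpha 6 or alpha 7 bind laminins, pairs with alpha 1 or alpha 2 bind collagens and also some laminins, and beta 4 pairs with alpha 6 alone. Dystroglycan binds the globular ends of laminin, agrin and perlecan through a long sugar chain and links them to dystrophin and utrophin, and Bcam binds laminins that contain the alpha 5 chain. In the developing cortex, receptors of this set hold the endfeet of radial glia to the basement membrane under the meninges, and neurons use several of them in migration and neurite growth.

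The gene counts came from 3 RNA-seq libraries of cortical neurons from wildtype CD1 mice, with a single library, repeat 3, for every group. In the group IKVAV PA + PEDOT-S the neurons grew with a peptide amphiphile (PA, a self-assembling peptide material that carries the laminin sequence IKVAV) and a second component. The title calls that component PS2 and the library name PEDOT-S_OH, and taking it for the sulfonated conducting polymer PEDOT-S is an assumption. The group IKVAV PA had the peptide amphiphile alone, and the PDL control had neither; PDL is left unexplained in the labels. Groups were read from titles and library names, because the treatment entry does not differ between libraries, even for the control. Age of the animals and time in culture were not given. The comparisons were each scaffold against PDL, and the scaffold with PEDOT-S against that without it. With 1 library per group no difference has a replicate check and no test was possible, so all intervals below cover counting error only and describe these libraries, not the conditions.

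Total counts were 79057998 for IKVAV PA + PEDOT-S, 124425958 for IKVAV PA and 78993105 for the PDL control. Values are CPM normalised by trimmed-mean (TMM) factors. A gene was called higher or lower when the whole 95% counting interval of its ratio lay beyond 1.5-fold. The neuron markers were present: the 9 of them summed to 7153 CPM in IKVAV PA + PEDOT-S, 7368 CPM in IKVAV PA and 7189 CPM in the PDL control, and none was called in any comparison. Markers of other cells were detected too. The lists for astrocytes, radial glia, dividing cells, meningeal fibroblasts, endothelium, pericytes and smooth muscle summed to less in both scaffold libraries than in PDL. Their values are given beside the receptors below. The other lists did not share this direction in both scaffold libraries. The 9 oligodendrocyte lineage markers summed to 111.5 CPM in IKVAV PA + PEDOT-S, 81.9 CPM in IKVAV PA and 100.4 CPM in the PDL control. Of these, 4 were higher and 2 lower in IKVAV PA + PEDOT-S than in PDL, and 2 higher and 2 lower in IKVAV PA than in PDL. The 5 choroid plexus and ependyma markers summed to 18.8, 11.4 and 18.6 CPM in the same library order.

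The sequence that names the scaffold comes from laminin alpha 1, encoded by Lama1 (GRCm38 chr17:67697259-67822647, plus strand), and is shown because the scaffold is named for it. Among the coding sequences of 21901 mouse genes in GENCODE M21, 8 genes encode the run IKVAV, and Lama1 is the only laminin chain among them. In Lama1 it stands at residues 2123 to 2127. The stretch of the coding sequence below, from the GENCODE M21 transcripts, has the 15 bases that encode IKVAV in capitals.
Lama1: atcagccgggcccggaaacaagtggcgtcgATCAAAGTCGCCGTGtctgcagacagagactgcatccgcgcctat
Lama1 RNA was also counted in the cultures. It had 386 counts (4.93 CPM) in IKVAV PA + PEDOT-S, 815 counts (6.54 CPM) in IKVAV PA and 626 counts (7.86 CPM) in the PDL control, and was called in no comparison.

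Counted over all 9 receptors, filter or not, 2 (Itga1 and Itga7) were lower and none higher in IKVAV PA + PEDOT-S than in PDL, where 3.75% of all 13884 genes were lower and 0.447% higher. In IKVAV PA over PDL none of the 9 was called, against 3.41% of all genes lower and 0.54% higher. In IKVAV PA + PEDOT-S over IKVAV PA, 1 of 9 was lower (Itga1) and none higher, against 2.02% and 0.339% of all genes. All-gene values in this paragraph cover the 13884 genes past the filter, unless stated. Without the filter, 32633 genes were compared. Of these, 3.32% were lower and 0.757% higher in IKVAV PA + PEDOT-S over PDL. The shares were 2.59% and 1.48% in IKVAV PA over PDL, and 3.44% and 0.705% between the scaffolds. The median log2 ratio over the 9 was -0.43 in IKVAV PA + PEDOT-S over PDL, -0.41 in IKVAV PA over PDL and 0.00 in IKVAV PA + PEDOT-S over IKVAV PA, where the median of all genes was 0.00, 0.00 and 0.01. In sign, 8 of 9 were negative in IKVAV PA + PEDOT-S over PDL, with Itgb4 the exception, all 9 in IKVAV PA over PDL, and 5 of 9 in IKVAV PA + PEDOT-S over IKVAV PA. Of all genes, 50.5%, 49.9% and 48.3% were negative in the same order. The intervals of 7 of 9 lay below no difference in each comparison against PDL, which share the PDL library, as did those of 28.5% of all genes in IKVAV PA + PEDOT-S over PDL and 28.9% in IKVAV PA over PDL. In IKVAV PA + PEDOT-S over IKVAV PA, 2 of 9 intervals lay below no difference and 2 above, and 28.5% of all genes lay below.

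Itgb1, the beta subunit shared by most of these receptors (GRCm38 chr8:128685654-128733200, plus strand), was lower in both scaffold libraries than in the PDL control, without reaching the 1.5-fold bound. It had 6177 counts (78.9 CPM) in IKVAV PA + PEDOT-S, 9522 counts (76.4 CPM) in IKVAV PA and 8825 counts (111 CPM) in the PDL control. The PDL library thus stood apart, while the scaffold libraries lay close together. The log2 ratio was -0.49 (interval -0.54 to -0.44) for IKVAV PA + PEDOT-S over PDL, -0.54 (-0.58 to -0.49) for IKVAV PA over PDL, and 0.05 (0.00 to 0.09) for IKVAV PA + PEDOT-S over IKVAV PA. Of all 13884 genes compared, 8.19% had a lower ratio than Itgb1 in the first of these and 5.67% in the second, so its place was in the lower tail but not at its end. Both scaffold libraries were set against the same PDL library, so a low or high Itgb1 count in that library alone would appear in both ratios.

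Itgb4, the beta subunit of hemidesmosomes (chr11:115974709-116008412, plus strand), was close to the limit of detection, with 18 counts (0.230 CPM) in IKVAV PA + PEDOT-S, 19 counts (0.153 CPM) in IKVAV PA and 16 counts (0.201 CPM) in the PDL control. It passed the filter in no library, and the counting intervals of all 3 ratios included no difference. Its exons share 7.66% of their bases with a long noncoding RNA gene on the opposite strand.

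**Figure D1:**
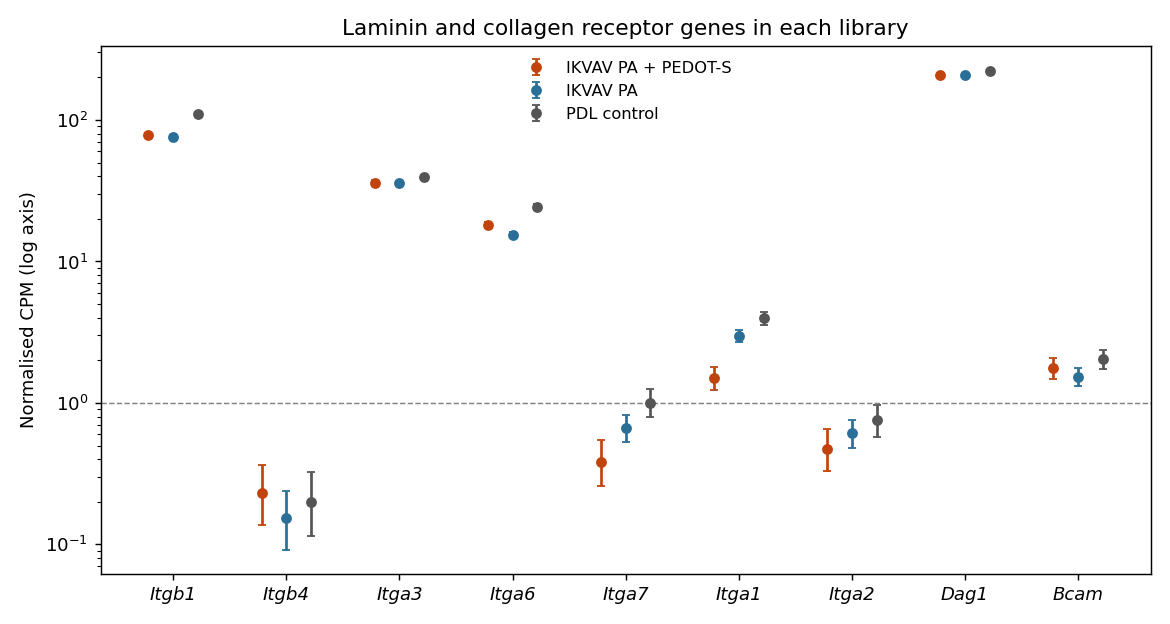
Normalised CPM (log axis) of the 9 receptor genes in the IKVAV PA + PEDOT-S, IKVAV PA and PDL control libraries, 1 point per library; bars are exact Poisson 95% intervals (counting error only) and the dashed line is the filter at 1 CPM. Dag1 lies at 207 CPM or above in every library, Itgb1 is highest in PDL at 111 CPM, and Itga1 and Itga7 are lowest in IKVAV PA + PEDOT-S, at 1.495 and 0.383 CPM.

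Of the laminin-binding alpha subunits, Itga3 (chr11:95044474-95076801, minus strand) was the most abundant and differed least between libraries. It had 2820 counts (36.0 CPM) in IKVAV PA + PEDOT-S, 4499 counts (36.1 CPM) in IKVAV PA and 3133 counts (39.3 CPM) in the PDL control. The log2 ratio was -0.13 (interval -0.20 to -0.05) for IKVAV PA + PEDOT-S over PDL and -0.12 (-0.19 to -0.06) for IKVAV PA over PDL, and the 2 scaffold libraries were level at 0.00 (-0.07 to 0.07).

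Itga6, the alpha subunit that can pair with either beta subunit (chr2:71745616-71858416, plus strand), was lowest in IKVAV PA. It had 1417 counts (18.1 CPM) in IKVAV PA + PEDOT-S, 1915 counts (15.4 CPM) in IKVAV PA and 1939 counts (24.3 CPM) in the PDL control. The 3 counting intervals of the levels did not overlap, with PDL highest and IKVAV PA + PEDOT-S between the others. The log2 ratio was -0.43 (-0.53 to -0.33) for IKVAV PA + PEDOT-S over PDL, -0.66 (-0.76 to -0.57) for IKVAV PA over PDL and 0.24 (0.14 to 0.34) for IKVAV PA + PEDOT-S over IKVAV PA. For IKVAV PA over PDL the point ratio, 1.58-fold lower, was past 1.5-fold, but the near bound of its interval, -0.57, was inside the bound, which is 0.585 in size on the log2 scale, so it was not called.

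Itga7, the alpha subunit best known from muscle (chr10:128933818-128958282, plus strand), was scarce and passed the filter only through the PDL library, so some difference was built into its selection. It had 30 counts (0.383 CPM) in IKVAV PA + PEDOT-S, 83 counts (0.666 CPM) in IKVAV PA and 80 counts (1.004 CPM) in the PDL control. It was called lower in IKVAV PA + PEDOT-S than in PDL, by 2.62-fold (log2 ratio -1.39, interval -2.05 to -0.77), and was not called in IKVAV PA over PDL (-0.59, -1.05 to -0.13) or in IKVAV PA + PEDOT-S over IKVAV PA (-0.80, -1.45 to -0.18). The call against PDL was lost with a 2-fold bound.

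Of the collagen-binding alpha subunits, Itga1 (GRCm38 chr13:114953096-115101964, minus strand) differed most of the receptors with over 100 counts in each library. It had 117 counts (1.495 CPM) in IKVAV PA + PEDOT-S, 372 counts (2.98 CPM) in IKVAV PA and 315 counts (3.96 CPM) in the PDL control. The lowest level was that with PEDOT-S, and the intervals of the 3 levels did not overlap. Itga1 was called lower in IKVAV PA + PEDOT-S both than in PDL, by 2.65-fold (log2 ratio -1.40, interval -1.72 to -1.09), and than in IKVAV PA, by 1.997-fold (-0.998, -1.31 to -0.69), but not in IKVAV PA over PDL (-0.41, -0.63 to -0.18). The call against IKVAV PA was lost with a 2-fold bound, or with an assumed biological coefficient of variation of 0.1 added to the interval. Its exons share 3.68% of their bases with another gene on the same strand. Itga2, the alpha subunit of the platelet collagen receptor (chr13:114833081-114932100, minus strand), stayed under the filter with 37 counts (0.473 CPM) in IKVAV PA + PEDOT-S, 76 counts (0.610 CPM) in IKVAV PA and 60 counts (0.753 CPM) in the PDL control. The Itga2 log2 ratio for IKVAV PA + PEDOT-S over PDL was -0.67 (-1.30 to -0.06), and the other intervals included no difference.

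Cells other than neurons could hold Itga1 and Itga7 transcripts, and markers of several such cells differed between the same libraries. The 8 pericyte and smooth muscle markers summed to 16.65 CPM in IKVAV PA + PEDOT-S, 39.0 CPM in IKVAV PA and 99.9 CPM in the PDL control. Acta2 alone made up most of each sum, at 9.99, 26.45 and 78.55 CPM in the same library order. Of the 4 that passed the filter, all 4 were lower in IKVAV PA + PEDOT-S than in PDL, 3 were lower in IKVAV PA than in PDL and 3 were lower in IKVAV PA + PEDOT-S than in IKVAV PA. Kcnj8 of this list was at 0 in both scaffold libraries and had 1 count in PDL. Tagln, Myh11 and Abcc9 were also under the filter, so their values carry little weight. The 8 meningeal fibroblast markers, none of them at 0, summed to 89.0 CPM in IKVAV PA + PEDOT-S, 139.5 CPM in IKVAV PA and 188 CPM in the PDL control, with 6 of 7 measured lower in IKVAV PA + PEDOT-S than in PDL, 3 lower in IKVAV PA than in PDL and 2 lower in IKVAV PA + PEDOT-S than in IKVAV PA. Most of each of these sums was the single gene Fn1, at 73.9, 110.4 and 124.5 CPM in the same library order. The 8 endothelial markers summed to 3.37 CPM in IKVAV PA + PEDOT-S, 4.06 CPM in IKVAV PA and 6.55 CPM in the PDL control. Of these, 3 passed the filter, Tie1 was at 0 in all 3 libraries, and the defining marker Cdh5 was near 0, at 0.0255, 0.0160 and 0.0125 CPM in the same order. The part of these cells in the Itga1 and Itga7 values was not tested, and in bulk RNA fewer cells of a type and less RNA per cell cannot be told apart.

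Itgb1 and Itga6 were lower in both scaffold libraries than in PDL, and so were the marker sums of astrocytes, radial glia and dividing cells. The sum of the oligodendrocyte lineage, given above, was lower than in PDL in IKVAV PA only. The 10 astrocyte markers summed to 224 CPM in IKVAV PA + PEDOT-S, 216 CPM in IKVAV PA and 307.5 CPM in the PDL control. Slc1a2 alone made up most of each sum, at 153.4, 160.9 and 168.9 CPM in the same library order. Of the 10 markers, 4 were lower and 1 higher in IKVAV PA + PEDOT-S than in PDL, and 8 were lower in IKVAV PA than in PDL. Between the scaffolds, 3 of 10 were higher in IKVAV PA + PEDOT-S than in IKVAV PA. The 1 marker higher than in PDL, Gfap, passed the filter only through IKVAV PA + PEDOT-S, at 1.393 CPM. Aqp4 passed it only through PDL, at 1.293 CPM, so some difference was built into the selection of both genes. The 8 radial glia and progenitor markers summed to 245 CPM, 213 CPM and 459 CPM in IKVAV PA + PEDOT-S, IKVAV PA and the PDL control. Vim was the largest part of each sum, at 124, 112.9 and 197.7 CPM in the same library order. Of 7 measured, 4 were lower in each scaffold library than in PDL and none was called between the scaffolds. The 6 dividing-cell markers summed to 31.0 CPM in IKVAV PA + PEDOT-S, 32.6 CPM in IKVAV PA and 102 CPM in the PDL control, and all 6 were lower in each scaffold library than in PDL. No marker of these 3 lists was at 0 in any library. Their part in the Itgb1 and Itga6 values was not tested. The 8 microglia markers reached only 2.34 to 2.89 CPM in sum, with 1 of 8 past the filter and Itgam at 0 in IKVAV PA and in the PDL control, and the 4 erythroid genes 0.549 to 1.18 CPM, with none past it.

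Dag1 (GRCm38 chr9:108204634-108263958, minus strand) was the most abundant of the receptors and lay within 10% of the same level in all 3 libraries. It had 16211 counts (207 CPM) in IKVAV PA + PEDOT-S, 26103 counts (209 CPM) in IKVAV PA and 17734 counts (223 CPM) in the PDL control. The log2 ratio was -0.10 (-0.14 to -0.07) for IKVAV PA + PEDOT-S over PDL, -0.09 (-0.12 to -0.06) for IKVAV PA over PDL and -0.02 (-0.04 to 0.01) for IKVAV PA + PEDOT-S over IKVAV PA. Bcam (chr7:19756131-19771016, minus strand) was weakly expressed, with 138 counts (1.76 CPM) in IKVAV PA + PEDOT-S, 190 counts (1.53 CPM) in IKVAV PA and 162 counts (2.03 CPM) in the PDL control. The counting intervals of all 3 levels overlapped, and only the ratio of IKVAV PA over PDL had an interval below no difference (-0.42, -0.73 to -0.10).

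**Figure D2:**
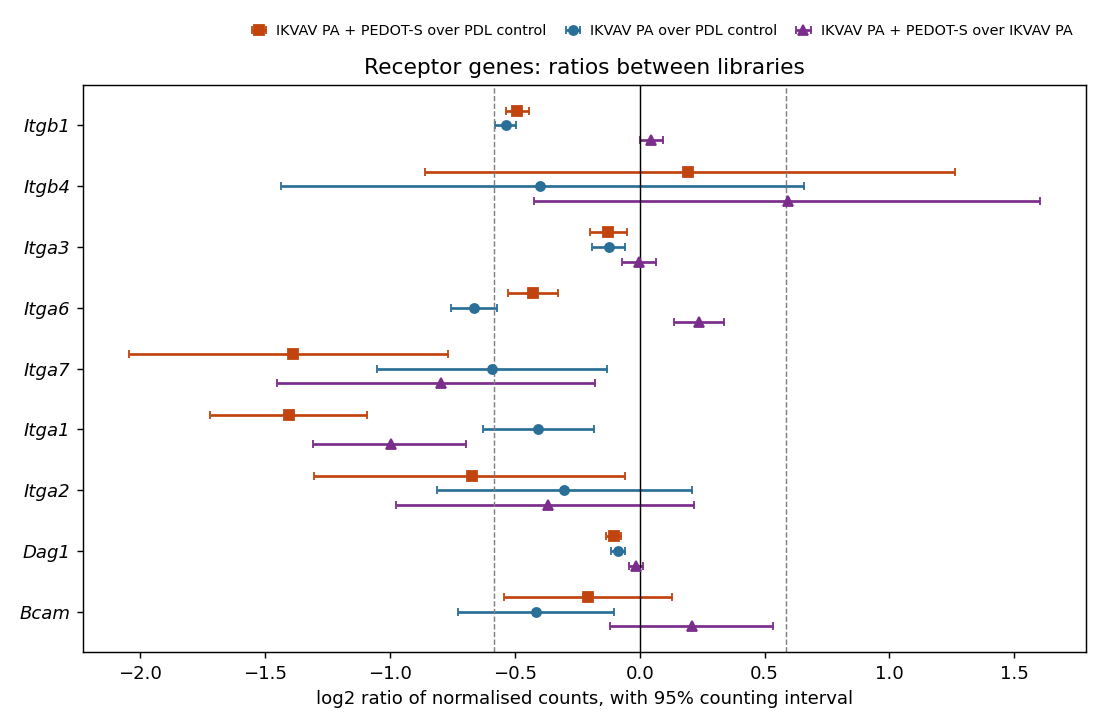
Log2 ratio of normalised counts for the 9 receptor genes in 3 comparisons, with 95% counting intervals; the dashed lines mark 1.5-fold and the solid line no difference. Only Itga1 and Itga7 have an interval wholly beyond the lower dashed line, Itga1 in both comparisons of IKVAV PA + PEDOT-S and Itga7 in that against PDL, while the Dag1 and Itga3 points lie between -0.13 and 0.00.

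To compare levels between receptors, normalised CPM was divided by the length of the merged exons in kilobases. On this scale the order in IKVAV PA + PEDOT-S was Dag1 (32.6), Itgb1 (19.3), Itga3 (6.31), Itga6 (2.01), Bcam (0.551), Itga1 (0.0804), Itga2 (0.0663), Itga7 (0.0474) and Itgb4 (0.0328 CPM per kb). The first 5 places were the same in IKVAV PA (Dag1 32.9, Itgb1 18.7, Itga3 6.32, Itga6 1.70 and Bcam 0.477 CPM per kb) and in the PDL control (35.0, 27.1, 6.89, 2.697 and 0.636 CPM per kb), and the counting intervals of these neighbours did not overlap. Below them in IKVAV PA + PEDOT-S, the interval of each of Itga1, Itga2, Itga7 and Itgb4 overlapped that of the next, although Itga1 (0.0665 to 0.0963) lay wholly above Itgb4 (0.0194 to 0.0518 CPM per kb). The intervals of Itga2 and Itga7 also overlapped in IKVAV PA and in the PDL control. With the longest protein-coding transcript as the length, which was chosen after the data were seen, Itga7 stood above Itga2 in all 3 libraries, and their intervals did not overlap in IKVAV PA (Itga7 at 0.166 and Itga2 at 0.0858 CPM per kb) or in the PDL control (0.2498 and 0.106 CPM per kb). Dag1 exceeded Itgb1 by 1.69-fold in IKVAV PA + PEDOT-S, 1.76-fold in IKVAV PA and 1.29-fold in the PDL control.

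The alpha subunits compete for beta 1 during assembly, and their transcripts were therefore also compared as shares. Summed per length over the 12 alpha genes Itga1 to Itga11 and Itgav, their level was 11.3 CPM per kb in IKVAV PA + PEDOT-S, 11.7 in IKVAV PA and 14.6 in the PDL control. Itgb1 stood at 1.71 times this sum in IKVAV PA + PEDOT-S, 1.603 times in IKVAV PA and 1.86 times in the PDL control. Itga3 alone made up 55.7% of the alpha sum in IKVAV PA + PEDOT-S, 54.1% in IKVAV PA and 47.3% in the PDL control, and Itga6 17.7%, 14.6% and 18.5% in the same order. Itga1 and Itga2 together held 1.29% in IKVAV PA + PEDOT-S, 2.11% in IKVAV PA and 2.19% in the PDL control. All 4 collagen-binding subunits, with Itga10 and Itga11 counted as well, held 4.87%, 6.33% and 4.99% in the same order, so that IKVAV PA was highest and the other libraries lay close together. Itga10 shares 33.5% of its exonic bases with another gene, so its part in that sum is uncertain. These shares depended on the length used. With the longest protein-coding transcript, Itga3 made up 47.9% in IKVAV PA + PEDOT-S, 47.1% in IKVAV PA and 39.7% in the PDL control, and Itga6 27.1%, 22.6% and 27.7%. Itga3 exceeded Itga6 by 3.15-fold, 3.71-fold and 2.55-fold in the same libraries with merged exons, but by 1.76-fold, 2.08-fold and 1.43-fold with that transcript, and Itgb1 then stood at 1.34, 1.27 and 1.43 times the alpha sum. Integrin Itgav also pairs with other beta subunits, so the sum can include alpha chains that do not reach beta 1.

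**Figure D3:**
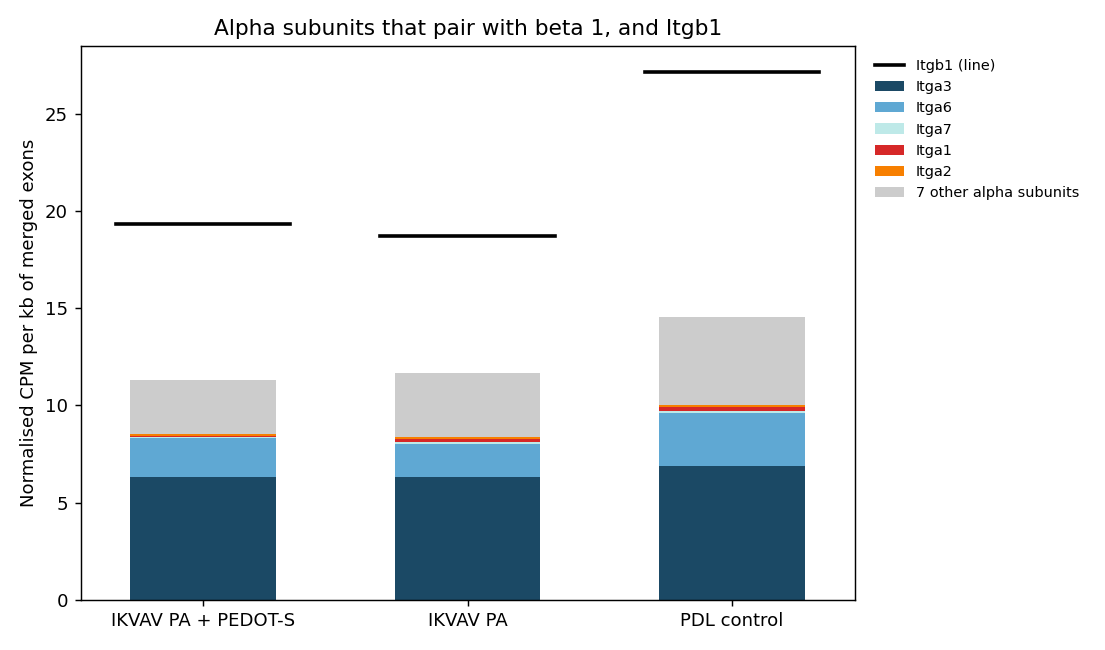
Stacked bars give normalised CPM per kb of merged exons for the 12 alpha subunits that can pair with beta 1, and the black line gives Itgb1, in the IKVAV PA + PEDOT-S, IKVAV PA and PDL control libraries. Itga3 is the main block in each bar (6.31, 6.32 and 6.89), Itga1, Itga2 and Itga7 are thin slices, and the Itgb1 line is highest over PDL, at 27.1.

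The 7 alpha subunits outside the 9 receptors included the fibronectin and vitronectin receptors Itga5 and Itgav. These were lower in IKVAV PA + PEDOT-S than in PDL (2 of 6 measured; Itga5 at -2.28 and Itgav at -1.23) and in IKVAV PA than in PDL (2 of 6; -1.50 and -0.86). Itga4, which binds fibronectin and Vcam1, was lower in IKVAV PA + PEDOT-S than in IKVAV PA (-1.43), with 0.715 CPM in IKVAV PA + PEDOT-S, 1.93 CPM in IKVAV PA and 1.39 CPM in the PDL control. The list of 12 other receptors for laminin or collagen, which shares Itga9, Itga10 and Itga11 with the alpha subunits, had 11 measured. In IKVAV PA + PEDOT-S over PDL, 2 of them were lower, the proteoglycan Sdc4 (-1.69, 0.460 against 1.48 CPM) and the adhesion molecule Mcam (-1.03), and none was higher. Sdc4, at 0.867 CPM in IKVAV PA, passed the filter only through the PDL library, so some difference was built into its selection. In IKVAV PA over PDL, 2 were lower, Mcam (-1.06) and the collagen receptor kinase Ddr2 (-0.95), and none was called between the scaffolds. At the high end, without a call, were Sdc1 in IKVAV PA + PEDOT-S over PDL (0.33) and Itga10 in IKVAV PA over PDL (0.60). Rpsa, a ribosomal protein also described as a laminin receptor, had 484 CPM in IKVAV PA + PEDOT-S, 436 CPM in IKVAV PA and 435 CPM in the PDL control. The list medians were -0.06, -0.02 and 0.03 in IKVAV PA + PEDOT-S over PDL, IKVAV PA over PDL and IKVAV PA + PEDOT-S over IKVAV PA, next to all-gene medians of 0.00, 0.00 and 0.01. The all-gene shares called lower were 3.75%, 3.41% and 2.02% in the same order.

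Many ligands of these receptors were lower in the scaffold libraries. Of 13 measured laminin chains and basement membrane ligands 7 were lower in IKVAV PA + PEDOT-S than in PDL, 6 in IKVAV PA than in PDL and 2 between the scaffolds, with medians of -0.97, -0.71 and -0.33 and none higher. The all-gene shares called lower were 3.75%, 3.41% and 2.02% in the same order. Lama5, the alpha chain that Bcam binds, stood at 2.80 CPM in IKVAV PA + PEDOT-S, 4.68 CPM in IKVAV PA and 12.5 CPM in the PDL control (-2.16 and -1.42 against PDL). Hspg2, the dystroglycan ligand perlecan, stood at 7.53, 15.2 and 31.0 CPM in the same libraries and was lower in all 3 comparisons, at -2.04, -1.03 and -1.01. Agrn, the dystroglycan ligand agrin, was called in none, at 370 CPM in IKVAV PA + PEDOT-S, 436 CPM in IKVAV PA and 382 CPM in the PDL control. Of 11 collagen ligands, all measured, 10 were lower in IKVAV PA + PEDOT-S than in PDL, 9 in IKVAV PA than in PDL and 5 in IKVAV PA + PEDOT-S than in IKVAV PA, with medians of -1.98, -1.05 and -0.73. Col1a1 was the lowest of them in the first of these, at -2.64, and Col4a2, a basement membrane collagen, was called in no comparison (-0.41, -0.08 and -0.33). Col1a1, Col1a2 and Col3a1 are also in the list of meningeal fibroblast markers, whose sums are given above, and the part of those cells in the collagen values was not tested.

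Of the listed enzymes that glycosylate dystroglycan and the listed genes of the dystrophin complex, 1 was called. None of the 17 measured enzymes of the pathway that builds the laminin-binding sugar chain of dystroglycan was called in any comparison, and the medians were -0.08 for IKVAV PA + PEDOT-S over PDL, 0.07 for IKVAV PA over PDL and -0.12 for IKVAV PA + PEDOT-S over IKVAV PA. The extremes of this list were Dpm1 between the scaffolds (-0.48) and Dpm3 in IKVAV PA + PEDOT-S over PDL (0.35), both subunits of dolichol-phosphate-mannose synthase. B4gat1 shares 85.3%, Gmppb 33.6%, Dpm1 11.95% and Pomgnt1 11.7% of the exonic bases with other genes, so their values are uncertain. In the dystrophin complex 12 of 14 genes were measured and the single call was Sntb1, a syntrophin, lower in IKVAV PA than in PDL (-0.97, 0.955 against 1.87 CPM). Of all genes, 3.41% were called lower in that comparison. Utrn, the dystrophin relative utrophin, was at -0.54 and Sgcd, a sarcoglycan, at 0.47 in IKVAV PA + PEDOT-S over PDL without a call. Sgcd was at 0.58 in IKVAV PA over PDL, also without a call.

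On the inner side of the integrins, 4 of 21 measured adaptor genes were lower in IKVAV PA + PEDOT-S than in PDL, 2 in IKVAV PA than in PDL and none between the scaffolds, with none higher and medians of -0.12, -0.06 and -0.01. The all-gene shares called lower were 3.75%, 3.41% and 2.02% in the same order. Tensins 1 and 3, which tie beta tails to actin, were lower in both scaffold libraries (Tns1 at -1.21 in IKVAV PA + PEDOT-S and -0.85 in IKVAV PA, Tns3 at -1.10 and -1.06). The talin gene Tln1 (-0.82) and the alpha-actinin gene Actn1 (-0.67), named after their values were seen, were lower in IKVAV PA + PEDOT-S than in PDL and were called in no other comparison. The Src-family kinase gene Fyn was at 0.23 and Src at 0.19 in IKVAV PA + PEDOT-S over PDL, without a call. Ilk, the integrin-linked kinase, was counted at only 0.0502 to 0.128 CPM and shares 89.7% of its exonic bases with other genes, so its level cannot be read. Of the partners of beta 4 and of the tetraspanins, 5 of 7 were measured and none was called. Of the measured genes the plakin Plec was lowest, at -0.67 (-0.80 to -0.54) in IKVAV PA + PEDOT-S over PDL, and the tetraspanin Cd9 was at -0.59 (-0.75 to -0.42) in IKVAV PA over PDL, with 10.7% of its exonic bases shared with another gene.

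**Figure D4:**
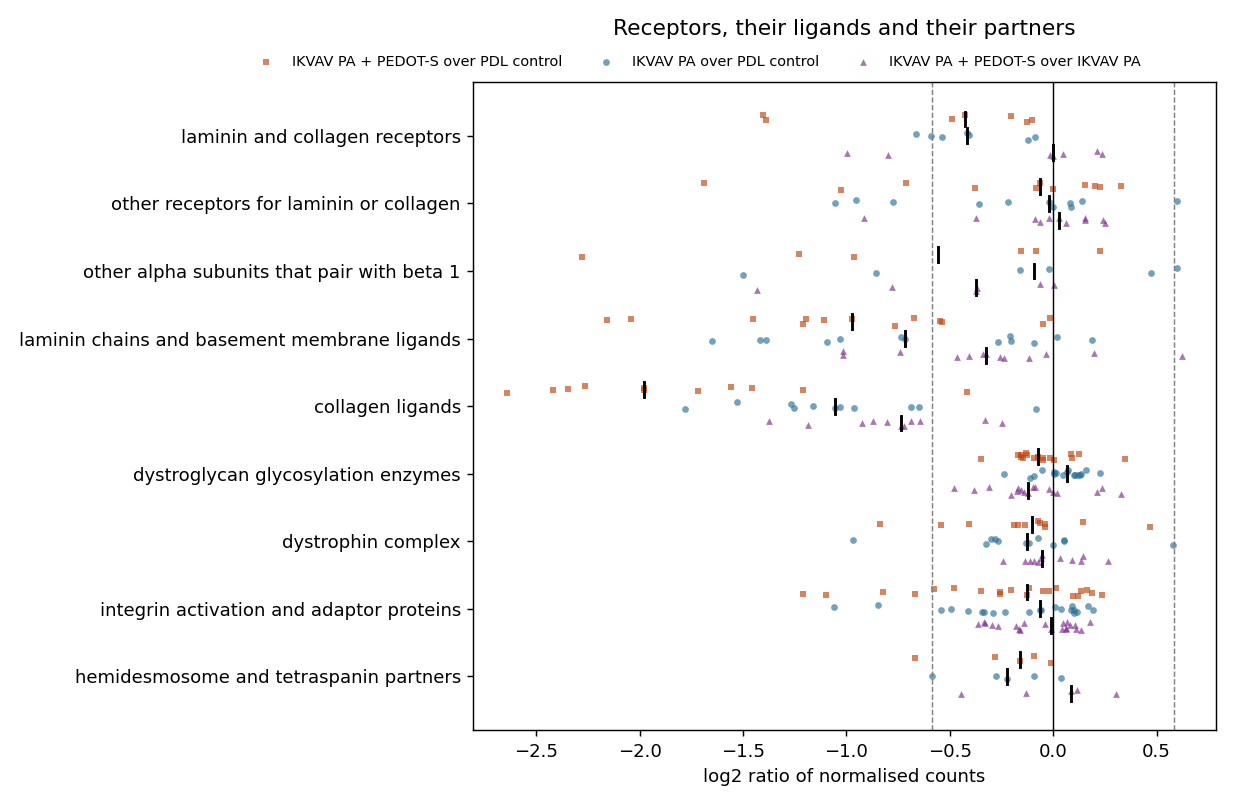
Log2 ratios of the measured genes in the receptor list and in 8 lists of ligands and partners, for 3 comparisons (symbol and colour), with the list median as a black tick and 1.5-fold as dashed lines. Collagen ligands have the lowest medians (-1.98, -1.05 and -0.73), and the enzymes that glycosylate dystroglycan lie between -0.48 and 0.35.

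Among 140 listed genes with at least 1 CPM in every library, the pattern most like that of Itgb1 over the 3 libraries was that of Parva, an actin-binding partner of integrin-linked kinase (distance 0.013 between log2 levels centred over the libraries). The next were the syndecan Sdc2 (0.13) and Itga6 (0.14). For Itga1 the nearest were the pericyte marker Rgs5 (0.12) and the collagens Col4a1 (0.18) and Col3a1 (0.20). For Itga7 they were Col4a1 (0.05), Col3a1 (0.12) and Itga1 (0.16), with 141 candidates. With 3 libraries such a pattern has few degrees of freedom, so this likeness is a description only.

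The promoters of Itgb1 and Itga1 are shown because these genes carry the contrast between a receptor that lay alike in both scaffold libraries and a receptor that was low in IKVAV PA + PEDOT-S. They run from 250 bases before to 50 after the start in RefSeq (GRCm38.p6), at chr8:128685404-128685703 on the plus strand and chr13:115101915-115102214 on the minus strand. Capitals mark matches on either strand to the letters GGAATG (TEAD), TGANTCA (AP-1) or GGGCGG (Sp1).
Itgb1: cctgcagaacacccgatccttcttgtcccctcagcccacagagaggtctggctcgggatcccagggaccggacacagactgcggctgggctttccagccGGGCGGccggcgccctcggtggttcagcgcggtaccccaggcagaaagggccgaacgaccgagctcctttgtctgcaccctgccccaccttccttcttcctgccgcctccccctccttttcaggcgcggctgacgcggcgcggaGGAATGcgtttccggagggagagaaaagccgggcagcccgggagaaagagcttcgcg
Itga1: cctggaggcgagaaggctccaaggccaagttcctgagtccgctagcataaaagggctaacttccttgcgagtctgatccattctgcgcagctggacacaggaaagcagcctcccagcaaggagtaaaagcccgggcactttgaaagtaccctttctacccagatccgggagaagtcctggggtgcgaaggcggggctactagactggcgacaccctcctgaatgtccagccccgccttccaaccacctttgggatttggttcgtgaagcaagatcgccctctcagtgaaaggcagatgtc
Itgb1 held 1 TEAD and 1 Sp1 match, which do not overlap, and Itga1 none of the 3. Of 32851 promoters of the same length 14.7% hold the TEAD letters, 7.81% the AP-1 letters and 35.7% the Sp1 letters. Promoter entries were found for 6 of the 9 receptors. Such matches describe letters and not sites.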

How the data were processed

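Gene counts from 3 RNA-seq libraries of cultured mouse cortical neurons were used. The deposited values are whole-number counts per Ensembl gene, 1 table per library and not normalised. Per the labels' protocols, libraries were made from total RNA with a TruSeq Total RNA kit, while the molecule field reads polyA RNA. Per the submitters' processing notes the tools included STAR 2.7.5 and HTSeq 2.0.2, besides cutadapt 4.2 and DESeq2 1.14.1, and the build was mm10. Strand setting, annotation and filters were not given in the sources used here. Reads of overlapping or antisense genes therefore cannot be told apart.

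Of 54232 identifiers 54165 had an entry in GENCODE M21 (GRCm38), the source of symbols, exon lengths and positions. Counts were scaled with TMM factors (0.990, 1.00 and 1.01 for IKVAV PA + PEDOT-S, IKVAV PA and PDL) from edgeR 4.0.16 in R 4.3.3. Genes with at least 1 CPM in at least 1 library were compared (13884). Ratios carry exact Clopper-Pearson 95% intervals of the count in one library given the sum of both, and levels exact Poisson intervals; without molecular identifiers, reads need not be separate molecules, so these cover counting error only. The calculation was tested on simulated data.

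The 9 receptors and the other lists were chosen with earlier results of these data known. Named genes are the 9 receptors, at most the 2 highest and 2 lowest of each list in each comparison, ranked by the interval bound closest to 0, the 3 most alike genes, and listed markers; exceptions are stated. Alternatives were scaling by total counts or by DESeq2 1.42.0 size factors, other filters and bounds, thinned libraries, an assumed variation and protein-coding genes alone.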

Additional observations from a re-analysis of the deposited data

How the results depend on the processing

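No paired analysis was possible because each group has 1 library and the groups share the single repeat number 3. Scaling by DESeq2 size factors, total counts or protein-coding genes alone moved no receptor's log2 ratio by more than 0.03 and changed no receptor call. Dropping the filter or thinning to the smallest total changed no receptor call either, but thinning moved Itga7 to -0.33 in IKVAV PA over PDL (-0.59 unthinned) and to -1.05 between the scaffolds (-0.80 unthinned). No called ratio changed sign under any alternative. The receptor calls changed as follows. With a 5 CPM filter, which leaves out Itga1 and Itga7, the count of lower receptors was 0 in IKVAV PA + PEDOT-S over PDL and 0 over IKVAV PA. With a 2-fold bound it was 1 and 0, as Itga7 lost its call against PDL and Itga1 its call against IKVAV PA. With an assumed biological coefficient of variation of 0.1 the call of Itga1 between the scaffolds was lost (0). With point ratios alone, 2 receptors were lower in IKVAV PA over PDL (Itga6 and Itga7) and 2 between the scaffolds (Itga1 and Itga7).

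Counts over all genes moved more, given here as higher and lower. In IKVAV PA + PEDOT-S over PDL (62 and 520) they were 247 and 1082 without a filter, 37 and 228 at 5 CPM, 13 and 258 at 2-fold, 179 and 913 by point ratios, and 19 higher with the assumed variation. In IKVAV PA over PDL (75 and 473) they were 484 and 846, 18 and 222, 9 and 218, 284 and 717, then 31 higher with the assumed variation and 32 higher for protein-coding genes alone. In IKVAV PA + PEDOT-S over IKVAV PA (47 and 280) they were 230 and 1123, 23 and 96, 7 and 75, 155 and 627, then 17 and 163 with the assumed variation and 149 lower for protein-coding genes alone. The cause of these shifts was not tested beyond the construction of each setting. Depth limits Itgb4, Itga2 and Itga7, which had 16 to 83 counts a library.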
